A study of Mus musculus with 16 samples.

Results

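Axon guidance ligands and receptors are the secreted or membrane-bound cues, and their cell-surface receptors, that steer growing axons. The genes were chosen by name from the count table of 16 mouse hippocampi: the class 3 to 7 semaphorins, the plexins and neuropilins, the ephrins and Eph receptors, the Slits and Robos, the netrins and netrin-G proteins, Dcc and the Unc5 receptors. Of the 55335 genes of the table, 71 matched, and the 69 with a mean of at least 10 raw counts over the 16 mice are described here: 20 semaphorins, 9 plexins, 2 neuropilins, 7 of 8 ephrins, 13 of 14 Eph receptors, 3 Slits, 4 Robos, 4 netrins, 2 netrin-G genes and 5 receptors of the Dcc and Unc5 kinds. The other 2 were Efna4, just under the limit with a mean of 6.69 counts, and Epha1, with a mean of 2 counts, and the lowest of the 69 was Epha2 with a mean of 11.2 counts. All 69 were among the 16475 genes tested.

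The hippocampi came from 4 groups of 4 mice aged 10 months. WT-D and 3xTg-D mice received vehicle (0.8% DMSO in artificial cerebrospinal fluid) into the lateral ventricle for 28 days, and WT-S and 3xTg-S mice received CAY10566 (SCDi), an inhibitor of the fatty acid enzyme stearoyl-CoA desaturase, at 80 µM in the same vehicle by the same pump. 3xTg mice carry the human transgenes APPSwe and tauP301L, both driven by the neuron-specific mouse Thy1.2 element, on the Psen1tm1Mpm knock-in allele. WT mice were strain controls (C57BL/6J x 129S1) obtained as a line of their own, so that the transgenes and other differences between the lines cannot be told apart, and all mice were female. All 4 groups had surgery and DMSO.

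In the developing brain these cues attract or repel the growth cone, the motile tip of an axon, by acting on the actin skeleton through receptors on its surface. Semaphorins bind plexins, often with a neuropilin as co-receptor, ephrins bind Eph receptors and can also signal backwards into the cell that carries them, Slits bind Robos, and netrins attract through Dcc and repel through Unc5 receptors. Many of these genes stay active in the adult hippocampus, where they are known for roles in mossy fibre pathways, dendritic spines and synaptic plasticity, and several also act in blood vessels and oligodendrocytes. Whole tissue was measured, so fewer cells of a type and less RNA per cell cannot be told apart.

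Each mouse had between 15413385 and 23590149 reads on genes. The share of uniquely aligned reads outside annotated genes, which holds intronic and intergenic reads, ranged from 7.82% in 3xTg-S replicate 2 to 15.1% in 3xTg-S replicate 4. Markers of CA1, CA3 and dentate granule neurons were present in every mouse. Levels are given in CPM, counts per 1e6 reads on the genes tested, with library sizes scaled by TMM normalization. Choroid plexus transcripts stood apart in 2 libraries. Transthyretin (Ttr) reached 638 CPM in WT-D replicate 4 and 246 CPM in WT-S replicate 1, against at most 13.3 CPM in any 3xTg mouse. In 3xTg-D mice, the myelin genes Mbp and Mobp were called higher than in WT-D (log2 fold changes 0.49 and 0.39), and C1ql2, the only one of 5 dentate granule markers to be called in any comparison, was lower in 3xTg mice over both treatments (log2 fold change -1.13).

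Levels between genes were compared as CPM per kilobase of exon, averaged over the 16 mice. The median of the 69 genes was 3.59 CPM per kb, beside 3.94 over 16466 tested genes with an exon length. They spanned more of the genome than most: the median gene span was 58.5 kb, against 22.3 kb over all 16475 genes tested. No exon of Dcc, Epha5, Sema7a, Sema3b, Plxnd1 or Ntn1 overlapped an exon of another gene, while part of the exon length of Ntng2 overlapped exons of a neighbour.

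Among the ephrins and Eph receptors, the receptor Epha4, known for its place in synapses and in ephrin signalling between neurons and astrocytes, had the highest level of all 69 genes, 57.3 CPM per kb with a range of 43.3 to 68.6 over the 16 mice. The Epha7, Epha6 and Epha5 receptors followed at 23.9, 16.3 and 13.7 CPM per kb, and the ranges of Epha6 and Epha5 overlapped. The highest ligand of this family was Efnb3, a membrane-spanning ephrin, at 35.4 CPM per kb, before the lipid-anchored Efna3 at 21.2. The lowest of the 69 was Epha2, at 0.123 CPM per kb. In CPM, Epha4 was 503, 458, 464 and 498 in the WT-D mice, 498, 348, 459.8 and 439.9 in 3xTg-D, 439.9, 460.4, 437 and 553 in WT-S and 441, 452, 456 and 472 in 3xTg-S, and Efnb3 was 112, 106, 115 and 125, 119, 119, 108 and 122, 109, 115, 98.8 and 112 and 111, 105, 113 and 112 in the same order. Both genes overlapped between all groups.

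Slit1, the repellent that binds Robo receptors, led its family at 28.7 CPM per kb, above Slit3 (8.07) and Slit2 (2.12). Robo2 led the receptors at 8.74 CPM per kb, above Robo1 (4.77), Robo3 (1.53) and the endothelial Robo4 (0.654). Slit1 was 176, 159.8, 174 and 186 CPM in WT-D, 167, 112, 165 and 189.9 in 3xTg-D, 134, 153, 133 and 225 in WT-S and 171, 144, 219 and 209.9 in 3xTg-S mice. Its lowest and highest mice were 3xTg-D replicate 2 and WT-S replicate 4, and the groups overlapped. Robo2 was more even, at 153, 157, 149 and 148, 148, 119, 150.2 and 140.0, 149, 159.7, 143 and 153 and 149.8, 157, 151 and 148 CPM in the same order of groups. Robo3 varied most of the Robos between mice, from 0.613 to 2.80 CPM per kb.

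Sema7a, a lipid-anchored semaphorin that binds plexin C1 and integrins, led the semaphorins at 23.9 CPM per kb, followed by Sema6b at 17.8 and Sema3e at 12.8. Plxna1 and Plxna4, receptors that work with neuropilins or bind class 6 semaphorins directly, had 13.7 and 13.4 CPM per kb, and their ranges overlapped, so that neither was highest. Plxna1 was 132, 123, 123 and 124 CPM in WT-D, 112, 94.5, 109 and 127 in 3xTg-D, 101, 122, 121 and 153 in WT-S and 117, 133, 146 and 151 in 3xTg-S. The 4 netrins were low, at 1.03 to 1.69 CPM per kb, and the netrin-G genes, whose products sit on axons and bind NGL proteins across the synapse, were higher at 5.49 (Ntng1) and 3.94 (Ntng2). Unc5a, a netrin receptor of the repulsive kind, led the netrin receptors at 17.9 CPM per kb, with 74.1, 72.5, 69.8 and 74.9 CPM in WT-D, 69.1, 76.8, 70.5 and 80.9 in 3xTg-D, 61.4, 79.9, 67.7 and 79.0 in WT-S and 74.2, 75.8, 87.8 and 81.0 in 3xTg-S mice. Dcc itself was at 3.59. Counted per kilobase of coding sequence, Sema3e, Plxna4 and Unc5c came first in place of Sema7a, Plxna1 and Unc5a, while Epha4, Efnb3, Slit1, Robo2 and Ntng1 kept their place.

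**Figure D1:**
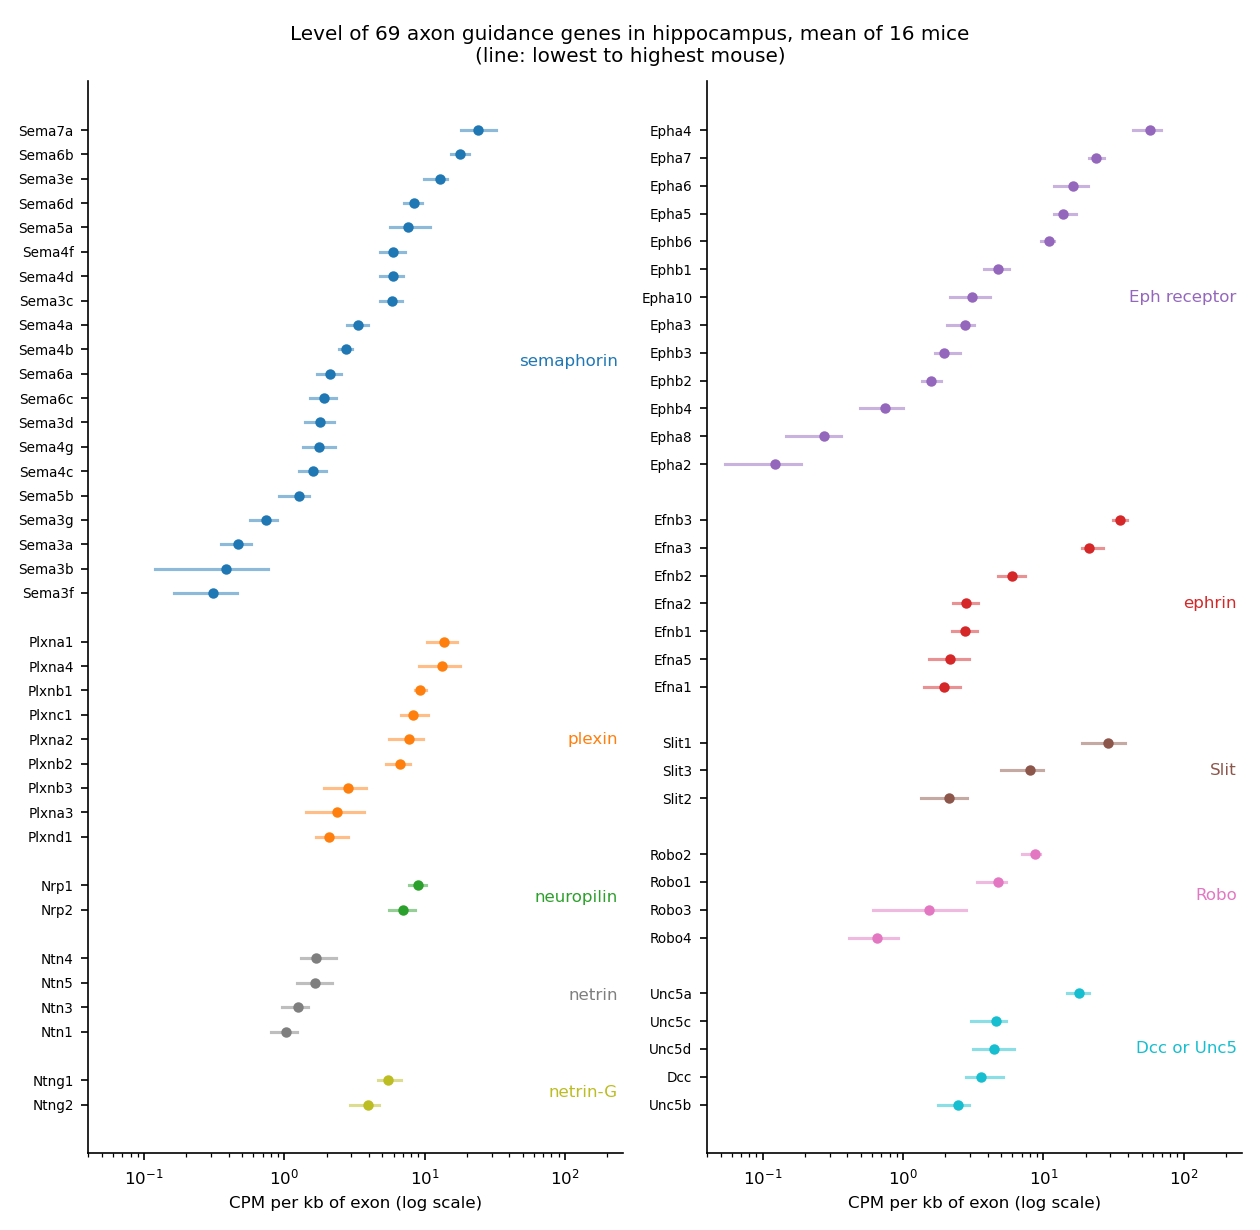
Level of each of the 69 genes in CPM per kilobase of exon on a log axis, grouped by kind, as the mean of 16 mice (points) with the lowest and highest mouse (lines). Epha4 stands at the top with 57.3 and Epha2 at the bottom with 0.123, and the lines of Sema3b, Epha2 and Robo3 are the widest of their kinds.

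The first question was how the genes differed between 3xTg and WT hippocampus with vehicle alone. Of the 69, 7 were called by edgeR's quasi-likelihood test, that is, their unadjusted p was at most 0.01, the threshold of the study, and all 7 were lower in 3xTg-D mice. Over all 16475 genes 2.47% were called lower and 4.91% in either direction. The 7 were 3 classical ligands (Sema5a, Sema7a and Ntn1), the netrin-G genes Ntng1 and Ntng2, and the receptors Plxnd1 and Robo4. In each of the 7, every 3xTg-D mouse lay below every WT-D mouse, as it also did in Sema3b and Epha3, whereas over all genes 3.78% lay wholly below. By edgeR none passed an adjusted threshold of 0.05, which 1.85% of all genes passed, and 13 had an unadjusted p under 0.05, beside 12.6% of all genes. DESeq2 put 4 past the adjusted threshold, beside 3.08% of all genes.

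Sema5a, a semaphorin with thrombospondin repeats that restrains synapse formation on dentate granule cells, was at 165, 146, 167 and 168 CPM in WT-D and 128, 106, 140.3 and 122 in 3xTg-D mice. The lowest WT-D mouse, replicate 2, was still above the highest 3xTg-D mouse. Its mean fell from 162 ± 10.6 to 124 ± 14.2 CPM (SD), a difference of log2 fold change -0.38, SE 0.083, adjusted p = 0.0521. With SCDi the gene was at 113, 136, 146 and 205 CPM in WT-S and 148, 115, 146 and 136 in 3xTg-S mice, which overlapped. Plxnd1, the plexin D1 receptor of Sema3e, known from blood vessels and from thalamic and striatal wiring, was at 20.8, 17.0, 14.96 and 18.2 CPM in WT-D and 12.2, 13.8, 12.5 and 12.8 in 3xTg-D mice. Its 3xTg-D values were close together and all below the WT-D values (log2 fold change -0.47, SE 0.10, adjusted p = 0.0561). Robo4, which stabilises the vessel wall, was at 3.76, 4.08, 4.25 and 3.27 CPM in WT-D and 2.80, 2.73, 2.49 and 2.83 in 3xTg-D mice, again with the 3xTg-D mice close together (log2 fold change -0.50, SE 0.13, adjusted p = 0.117). Its call was lost without WT-D replicate 2, WT-D replicate 3 or 3xTg-D replicate 3 (log2 fold change -0.47 to -0.45), with the replicate block and with all 16 mice in 1 fit. That last fit was also the 1 alternative of 16 that did not call Sema5a.

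Robo4 and Plxnd1 are both expressed in endothelium. The 6 markers of endothelium and mural cells summed to 237 to 269 CPM in WT-D and 200 to 241 CPM in 3xTg-D mice, and their mean log2 level differed by -0.15 (exact two-sided permutation test, p = 0.257, adjusted p = 0.714 over 70 tests of marker lists). With SCDi the mean log2 level of the 6 markers differed by -0.17 between 3xTg-S and WT-S (exact permutation p = 0.286, adjusted p = 0.714). Of the 6, only Rgs5 was called in any comparison, lower in 3xTg over both treatments (log2 fold change -0.28, adjusted p = 0.0678 by edgeR). The part of vessel content in the difference of Robo4 and Plxnd1 was not tested. The 6 oligodendrocyte markers summed to 4181 to 4955 CPM in WT-D and 5442 to 6513 CPM in 3xTg-D mice, so they moved against the 7 genes (difference 0.21, exact permutation p = 0.0286, the smallest that 4 mice against 4 allow, adjusted p = 0.50). The mean log2 level of the 5 dentate granule markers differed by -0.22 with the same p and adjusted p, but not all 5 were lower in 3xTg-D mice. Calb1 was at 194 to 212 CPM in WT-D and 205 to 237 CPM in 3xTg-D, and the summed levels overlapped (402 to 493 and 404 to 424 CPM). The part of granule cells was not tested.

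Of the 6 genes that passed the adjusted threshold over both treatments, the promoters of 3 are shown, Sema7a, Plxnd1 and Epha5. Those of Dcc, Ntn1 and Sema3b are not printed. Each run holds 250 bases before and 50 after the gene's start in RefSeq on build GRCm38.p6, 5′ to 3′ along the gene, with GC boxes (GGGCGG on either strand) in capitals. They lie at chr9:57939862-57940161, plus strand for Sema7a, at chr6:115994956-115995255, minus strand for Plxnd1 and at chr5:84417333-84417632, minus strand for Epha5.
Sema7a: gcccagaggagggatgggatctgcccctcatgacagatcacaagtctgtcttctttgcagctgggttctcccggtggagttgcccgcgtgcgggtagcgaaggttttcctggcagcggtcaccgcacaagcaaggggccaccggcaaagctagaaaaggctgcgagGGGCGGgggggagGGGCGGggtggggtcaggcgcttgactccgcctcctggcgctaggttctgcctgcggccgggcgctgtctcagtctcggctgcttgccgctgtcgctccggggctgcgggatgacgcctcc
Plxnd1: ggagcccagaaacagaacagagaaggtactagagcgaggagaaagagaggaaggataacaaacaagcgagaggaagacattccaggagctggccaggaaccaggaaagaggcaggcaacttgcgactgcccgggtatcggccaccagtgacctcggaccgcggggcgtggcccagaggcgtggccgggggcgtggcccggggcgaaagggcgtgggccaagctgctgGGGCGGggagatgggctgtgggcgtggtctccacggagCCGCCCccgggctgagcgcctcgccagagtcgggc
Epha5: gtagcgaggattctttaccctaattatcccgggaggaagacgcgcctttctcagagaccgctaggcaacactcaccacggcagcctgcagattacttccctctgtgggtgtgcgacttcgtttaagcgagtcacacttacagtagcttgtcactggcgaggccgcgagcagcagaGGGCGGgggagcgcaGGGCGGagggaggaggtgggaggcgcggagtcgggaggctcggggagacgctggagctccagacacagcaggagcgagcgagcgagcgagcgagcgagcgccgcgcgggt
Each holds 2 GC boxes, 64.3% to 67.3% G and C, and neither a TATA box (TATAAA on either strand) nor an E-box (CACGTG, which reads the same on both strands). Of the 75 promoters that RefSeq lists for 59 of the 69 genes, 70.7% held a GC box, against 35.7% of all 32851 promoters, and 2.67% held a TATA box, against 13.6%. The E-box was in 6.67% and 7.15%. The 32851 promoters were not narrowed to genes expressed in this tissue, as the 69 were, so these shares do not single out axon guidance genes. The windows of the 2 genes that fell and of Epha5, which was higher, did not differ in these motifs.

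Sema7a (chr9:57940112-57962865, plus strand) was at 92.0, 84.5, 73.8 and 97.2 CPM in WT-D and 68.9, 66.6, 72.4 and 70.8 in 3xTg-D mice. With SCDi it was at 84.0, 106, 77.6 and 91.6 CPM in WT-S and 59.9, 78.5, 73.9 and 62.6 in 3xTg-S mice. The 3xTg-D mice were all below WT-D, and of the 3xTg-S mice only replicate 2 reached the lowest WT-S mouse. The vehicle difference was log2 fold change -0.32, SE 0.081, adjusted p = 0.0951, and all 16 alternatives called it.

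Ntn1, netrin-1, the attractant that binds Dcc, was at 7.60, 7.01, 7.46 and 7.61 CPM in WT-D and 5.17, 6.08, 6.32 and 5.07 in 3xTg-D mice (log2 fold change -0.39, SE 0.11, adjusted p = 0.147). The values separated the groups, but the call was lost (log2 fold change -0.39 to -0.34) without WT-D replicate 1, 3 or 4 or 3xTg-D replicate 1 or 4. Ntng1 was at 47.1, 46.8, 49.0 and 48.3 CPM in WT-D and 38.5, 39.6, 42.0 and 45.0 in 3xTg-D mice, a small difference between tight groups (log2 fold change -0.21, SE 0.058, adjusted p = 0.125). With SCDi it was at 43.4, 40.7, 39.2 and 55.9 CPM in WT-S and 47.3, 41.9, 45.1 and 54.0 in 3xTg-S mice, which overlapped. Ntng2 was at 17.5, 16.5, 17.5 and 19.0 CPM in WT-D and 13.6, 15.3, 11.8 and 14.6 in 3xTg-D mice (log2 fold change -0.35, SE 0.092, adjusted p = 0.11). The Ntng1 call was lost without WT-D replicate 3 or 3xTg-D replicate 1 (log2 fold change -0.20 to -0.18) and the Ntng2 call without WT-D replicate 4 or 3xTg-D replicate 1 (-0.34 to -0.32). Both netrin-G calls were also lost with the share of reads outside genes as a covariate.

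By role, 25 of the 33 receptors had a vehicle log2 fold change below 0 (median -0.10), as did 19 of the 36 ligands (median -0.033). Of the 13 Eph receptors, 12 lay below 0 (median -0.11), as did all 4 Robos (median -0.26) and 6 of 9 plexins (median -0.12), whereas 3 of the 5 Dcc and Unc5 receptors and 1 of 2 neuropilins lay above 0. Among the ligands all 3 Slits lay below 0 (median -0.13) and 6 of 7 ephrins above (median 0.034). Of these, only Robo4 and Plxnd1 were called. Over the 69 genes 44 lay below 0 with a median of -0.049, against a median of -4.3e-05 over all genes tested. With the share of reads outside genes as covariate 39 lay below 0 and the median was -0.011. Single mice moved it too: without 3xTg-D replicate 2, 36 lay below 0 with a median of -0.015, and the median was -0.13 without 3xTg-D replicate 4, -0.085 without WT-D replicate 2 and -0.076 without 3xTg-D replicate 1.

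With SCDi, 5 of the 69 were called between 3xTg-S and WT-S mice, in mice that the vehicle comparison did not use. Epha5, Sema5b and Dcc were higher and Sema7a and Sema3b lower in 3xTg-S, where 4.26% of all genes were called, 1.79% higher and 2.47% lower. By edgeR none passed the adjusted threshold (1.4% of all genes), 9 had an unadjusted p under 0.05 (10.7%), and DESeq2 put 3 past the adjusted threshold (2.45%). In 4 of the 69 every 3xTg-S mouse lay above every WT-S mouse (3.22% of all genes), and in 1 below (3.53%). Sema7a was the gene called in both strain comparisons. The 5 neocortex markers summed to 252 to 262 CPM in 3xTg-S and 222 to 248 CPM in WT-S mice. Their mean log2 level differed by 0.13 (exact permutation p = 0.0286, adjusted p = 0.50). Of the 5, Tbr1 alone was called here (log2 fold change 0.37, adjusted p = 0.0577 by edgeR). The 6 thalamus markers differed by -0.26 (exact permutation p = 0.0571, adjusted p = 0.667). The part of tissue content was not tested.

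Dcc, the netrin-1 receptor that attracts axons (ENSMUSG00000060534.16, chr18:71253634-72351069, minus strand), was at 37.6, 40.1, 45.1 and 43.4 CPM in WT-S and 60.1, 46.9, 55.2 and 67.8 in 3xTg-S mice, and at 47.0, 36.9, 41.3 and 41.8 CPM in WT-D and 56.5, 37.0, 47.2 and 51.8 in 3xTg-D mice. The 3xTg-S mice were all above the WT-S mice, whereas 3xTg-D replicate 2 lay among the WT-D mice. The difference with SCDi was log2 fold change 0.45, SE 0.11, adjusted p = 0.0907, called in all 16 alternatives, and that with vehicle was log2 fold change 0.20, SE 0.12, adjusted p = 0.533. Epha5, a receptor of the class A ephrins (chr5:84054761-84417382, minus strand), was at 200.1, 212, 202 and 223 CPM in WT-S and 248, 286, 238 and 255 in 3xTg-S mice without overlap (log2 fold change 0.28, SE 0.078, adjusted p = 0.148). With vehicle it was at 205, 224, 206 and 229 and 243, 208, 258 and 235 CPM in WT-D and 3xTg-D, and the groups overlapped. The SCDi call of Epha5 was lost without WT-S replicate 1 or 3 (log2 fold change 0.26 to 0.26).

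Sema3b, a secreted semaphorin that binds neuropilins, was the member with the largest difference and among the lowest counts, with a mean of 36.7 raw counts. It was at 2.07, 1.83, 2.15 and 3.63 CPM in WT-D, 0.879, 1.80, 1.70 and 1.42 in 3xTg-D, 2.49, 2.07, 2.38 and 2.71 in WT-S and 1.63, 0.572, 1.09 and 1.08 in 3xTg-S mice. All 8 3xTg mice lay below all 8 WT mice, and the share of all genes that did so was not counted. The difference with SCDi was log2 fold change -1.18, SE 0.27, adjusted p = 0.0765, called in all 16 alternatives, and that with vehicle was log2 fold change -0.72, SE 0.28, adjusted p = 0.316. The highest value was that of WT-D replicate 4, the library with the most choroid plexus RNA. Over both treatments the choroid markers Ttr and Clic6 were called lower in 3xTg too (log2 fold change -4.70 and -2.06, adjusted p = 0.0242 and 0.104 by edgeR). Without the 2 choroid libraries, genotype over both treatments still called Sema3b lower. The 7 choroid markers summed to a median of 54.9 CPM in WT-D, above the highest 3xTg-D mouse at 45.8 CPM. In WT-S mice the median was 30.9 CPM. The part of choroid RNA was not tested.

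Sema5b, a relative of Sema5a that repels axons, was at 6.53, 7.05, 7.47 and 8.84 CPM in WT-S and 9.16, 9.87, 10.5 and 10.2 in 3xTg-S mice, again without overlap (log2 fold change 0.40, SE 0.12, adjusted p = 0.173). In vehicle mice it was at 9.76, 8.21, 8.51 and 9.65 CPM (WT-D) and 9.95, 8.85, 9.23 and 9.70 CPM (3xTg-D), so the WT-S mice were the low group. Its call was lost in 6 of the 8 fits that left out a mouse (log2 fold change 0.34 to 0.40, without WT-S replicate 1, 2 or 3 or 3xTg-S replicate 2, 3 or 4) and without the choroid libraries. The Sema7a call was lost without WT-S replicate 2 or 4 or 3xTg-S replicate 1 or 4 (log2 fold change -0.39 to -0.31, against -0.40, SE 0.12, adjusted p = 0.182 with all 8 mice).

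**Figure D2:**
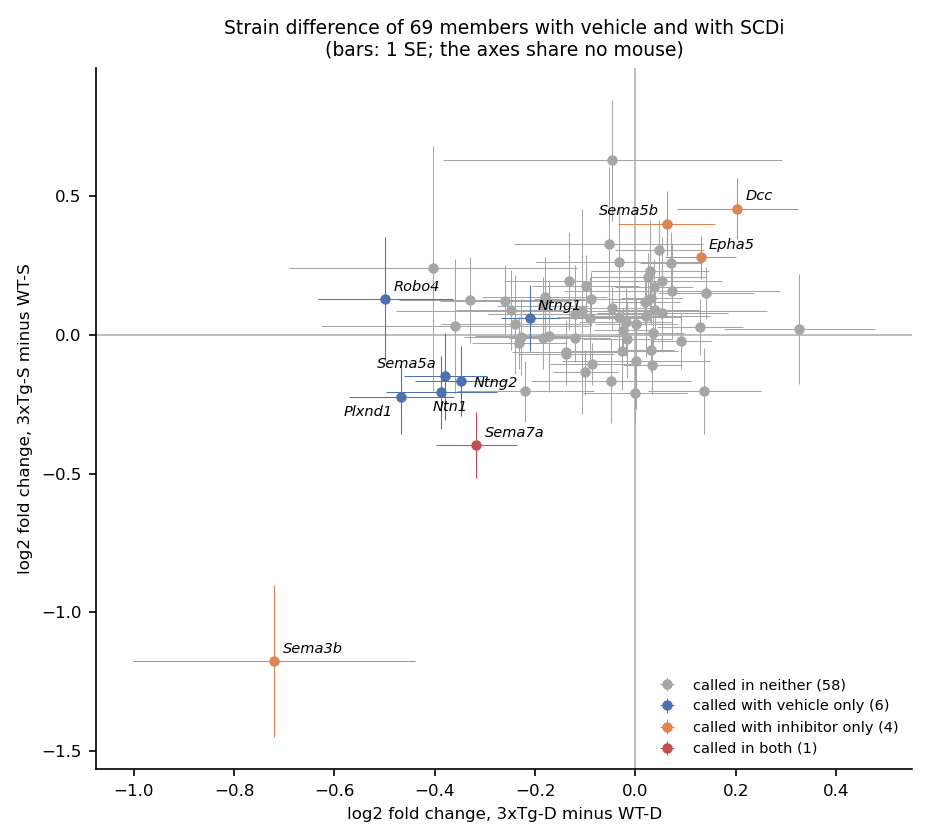
Log2 fold change of each of the 69 genes between 3xTg and WT mice with vehicle (horizontal) and with SCDi (vertical), with 1 SE either way and colours for the calls. Sema7a is called on both axes, Sema3b lies far to the lower left at -0.72 and -1.18, and most genes lie near 0.

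The vehicle and SCDi comparisons share no mouse, so each gene's pair of values can be set side by side. The log2 fold changes had the same sign in 40 of the 69 genes (58.0%), against 52.6% of all genes tested, and Pearson's r across the 69 genes was 0.50 (Spearman's rho 0.33), beside 0.72 (rho 0.17) over all genes. These are descriptions across genes, which share libraries and are not independent replicates, and without Sema3b r was 0.32.

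Averaged over both treatments, with all 16 mice in the fit, 7 genes were called between 3xTg and WT and 6 passed the adjusted threshold. Over all genes 7.90% were called, 3.88% higher and 4.02% lower, and 4.93% passed the adjusted threshold. Lower in 3xTg were the ligands Sema7a (log2 fold change -0.35, SE 0.073, adjusted p = 0.00627), Sema3b (log2 fold change -0.93, SE 0.21, adjusted p = 0.01) and Ntn1 (log2 fold change -0.29, SE 0.081, adjusted p = 0.0458), and the receptor Plxnd1 (log2 fold change -0.34, SE 0.089, adjusted p = 0.032). Higher in 3xTg were the receptors Epha5 (log2 fold change 0.21, SE 0.054, adjusted p = 0.0262) and Dcc (log2 fold change 0.34, SE 0.092, adjusted p = 0.0403). Netrin-1 and its receptor Dcc differed in opposite directions. Ntng2 was called lower without passing the adjusted threshold (log2 fold change -0.25, SE 0.081, adjusted p = 0.0947). DESeq2 put 7 past the adjusted threshold, beside 5.90% of all genes.

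The 6 genes past the adjusted threshold were called in all 23 alternatives of this fit at an unadjusted p of at most 0.01. The adjusted threshold itself held in all 23 for Sema7a and Sema3b, but in 18 for Plxnd1, 14 for Epha5, 10 for Ntn1 and 8 for Dcc, whose adjusted p rose to at most 0.0702, 0.0662, 0.112 and 0.141 by edgeR. Most of these losses came from leaving out a mouse, and the highest values from leaving out 3xTg-D replicate 3 for Plxnd1, the choroid libraries for Epha5 and Dcc, and the filter for Ntn1. The Ntng2 call was lost in 5 of them, without WT-D replicate 1 or 3, 3xTg-D replicate 1 or 3 or WT-S replicate 2 (log2 fold change -0.25 to -0.21). Plxnd1 with SCDi was at 14.1, 17.2, 14.3 and 19.3 CPM in WT-S and 14.4, 12.4, 12.7 and 16.6 in 3xTg-S mice, which overlapped (log2 fold change -0.23, adjusted p = 0.605 by edgeR), and Ntn1 at 6.48, 7.72, 6.88 and 6.46 and 6.74, 6.58, 5.07 and 5.67 CPM, which overlapped as well (log2 fold change -0.21, adjusted p = 0.638 by edgeR). Ntng2 was at 12.9, 18.9, 15.9 and 18.6 CPM in WT-S and 15.1, 14.5, 13.6 and 16.3 in 3xTg-S mice. None of the 7 was called by the test of the interaction, which compares the strain effect between vehicle and SCDi, with 95% intervals of the interaction of -0.11 to 0.62 for Plxnd1, -0.11 to 0.64 for Dcc and -1.30 to 0.43 for Sema3b on the log2 scale.

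**Figure D3:**
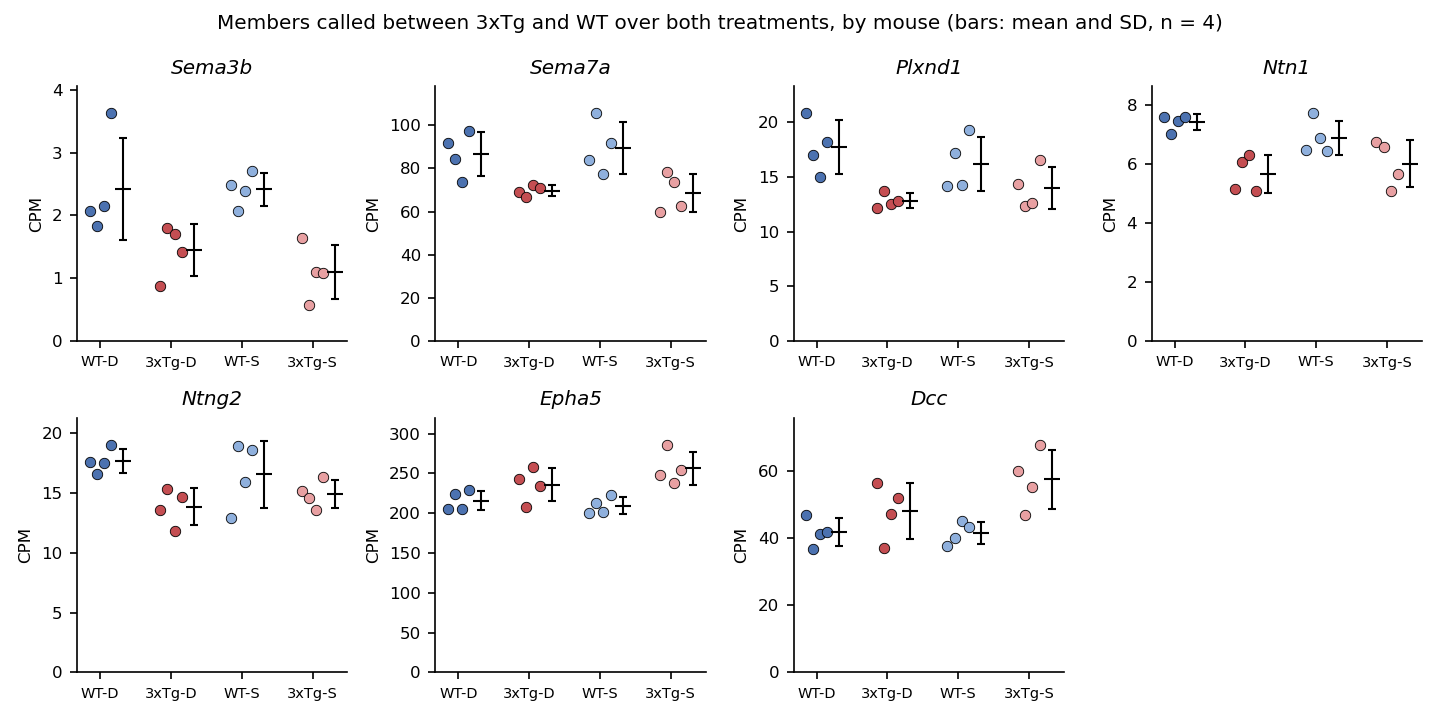
CPM of the 7 genes called between 3xTg and WT over both treatments, in each mouse of the 4 groups, with the group mean and SD beside the points. Sema3b, Sema7a, Plxnd1, Ntn1 and Ntng2 are lower and Epha5 and Dcc higher in the 3xTg groups, and for Sema3b all 8 3xTg points lie below all 8 WT points.

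Whether SCDi-treated 3xTg mice still differed from vehicle-treated WT mice was asked next. Of the 69, 8 were called, 5 higher and 3 lower in 3xTg-S, where 5.69% of all genes were called, 2.26% higher and 3.43% lower. Because WT-D is also the reference of the vehicle comparison, the values are given side by side without a test of their overlap. By edgeR none passed the adjusted threshold (1.58% of all genes), 13 had an unadjusted p under 0.05 (13.1%), and DESeq2 put 4 past the adjusted threshold (3.51%). In 4 of the 69 every 3xTg-S mouse lay above every WT-D mouse (5.13% of all genes), and in 3 below (4.42%).

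The 5 genes higher in 3xTg-S than in WT-D were the ligands Sema4f and Efnb2 and the receptors Plxnc1, Epha5 and Dcc. Sema4f, a membrane-bound semaphorin found at glutamatergic synapses, was at 29.7, 28.5, 27.3 and 30.7 CPM in WT-D and 32.6, 34.8, 38.5 and 38.4 in 3xTg-S mice without overlap (log2 fold change 0.29, SE 0.072, adjusted p = 0.0819). It was at 30.0, 28.9, 30.1 and 33.0 CPM in 3xTg-D and 25.6, 33.0, 26.5 and 34.5 in WT-S mice, and its difference between 3xTg-D and WT-D was 0.071 on the log2 scale (adjusted p = 0.691 by edgeR). The Sema4f call was kept in all 16 alternatives. Plxnc1, the plexin that binds Sema7a, was at 64.1, 63.0, 68.0 and 61.9 CPM in WT-D, 61.2, 56.9, 69.8 and 77.6 in 3xTg-D, 63.9, 57.2, 63.3 and 74.2 in WT-S and 83.4, 65.6, 87.4 and 86.6 in 3xTg-S mice (log2 fold change 0.31, SE 0.088, adjusted p = 0.129). Replicate 2 of 3xTg-S lay within the WT-D range. Efnb2, the membrane ephrin of arteries and of synapses, was at 38.8, 39.3, 39.6 and 34.5 CPM in WT-D, 32.3, 36.3, 36.9 and 49.3 in 3xTg-D, 43.4, 37.1, 38.0 and 40.5 in WT-S and 50.2, 40.2, 46.1 and 48.9 in 3xTg-S mice (log2 fold change 0.26, SE 0.08, adjusted p = 0.156). All 3xTg-S mice were above all WT-D mice in Efnb2.

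Dcc and Epha5 differed from WT-D by 0.44 and 0.23 on the log2 scale (adjusted p = 0.0918 and 0.159 by edgeR), beside 0.20 and 0.13 in 3xTg-D against WT-D. The 3 genes lower in 3xTg-S than in WT-D were Sema3b, Sema7a and Ntng2, by -1.18, -0.36 and -0.26 on the log2 scale. Ntn1, Plxnd1 and Sema5a, called lower in 3xTg-D, had values of -0.32, -0.36 and -0.26 in 3xTg-S, and none of the 3 was called, Sema5a lying just over the threshold. Ntng1 and Robo4, also called lower in 3xTg-D, had -0.04 and -0.021.

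Leaving out a mouse took away the calls of Efnb2 and Ntng2 in 7 of 8 fits (log2 fold change 0.22 to 0.29 and -0.29 to -0.22), in each with the exception of the fit without 3xTg-S replicate 2 for Efnb2 and without 3xTg-S replicate 4 for Ntng2. In all, Ntng2 was called in 3 of 16 alternatives and was also lost with median-ratio size factors, DESeq2, both other filters, all 16 mice in 1 fit and without the choroid libraries. Efnb2 was lost in 10 of 16, among them the replicate block and all 16 mice in 1 fit, and the block also took away the call of Sema7a. The Plxnc1 call was lost in 6 (all but WT-D replicate 3 and 3xTg-S replicate 2, log2 fold change 0.27 to 0.31), those of Epha5 (without WT-D replicate 1, 2 or 3 or 3xTg-S replicate 1 or 4, 0.21 to 0.25) and Sema7a (without WT-D replicate 1, 2 or 4 or 3xTg-S replicate 1 or 4, -0.37 to -0.30) in 5, and that of Sema3b in 3 (without WT-D replicate 4 or 3xTg-S replicate 3 or 4, -1.18 to -0.92). Without the choroid library WT-D replicate 4, 4 genes were called.

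The inhibitor itself was then compared with vehicle within each genotype. In 3xTg mice 1 of the 69 was called, Robo4, higher in 3xTg-S than in 3xTg-D, where 0.904% of all genes were called and 0.279% higher. Over all genes, 1.4% had every 3xTg-S mouse above every 3xTg-D mouse. Robo4 was at 2.80, 2.73, 2.49 and 2.83 CPM in 3xTg-D and 3.27, 3.53, 4.50 and 4.05 in 3xTg-S mice, without overlap (log2 fold change 0.50, SE 0.15, adjusted p = 0.722). In WT-S mice it was at 3.52, 2.18, 3.35 and 4.88 CPM, a range that included all 3xTg-D mice. The 3xTg-S mean of 3.84 ± 0.546 CPM (SD, n = 4) was close to the WT-D mean of 3.84 ± 0.433 CPM (SD, n = 4). The call of Robo4 against WT-D and this one share the same 4 3xTg-D mice, so they are not independent. A 3xTg-D group low by chance would give both. The call of Robo4 in 3xTg-S against 3xTg-D was lost in 11 of 15 alternatives, among them the fits without each of the 4 3xTg-D mice and without 3xTg-S replicate 3 or 4 (log2 fold change 0.40 to 0.51). The endothelium and mural markers summed to 228 to 267 CPM in 3xTg-S and 200 to 241 CPM in 3xTg-D mice (exact permutation p = 0.371, adjusted p = 0.732), and their part was not tested.

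The other genes with p under 0.05 in 3xTg-S against 3xTg-D were Sema4f (0.24, adjusted p = 0.722 by edgeR), Plxna1 (0.30, adjusted p = 0.722 by edgeR) and Plxnc1 (0.28, adjusted p = 0.722 by edgeR), all higher in 3xTg-S. These and Robo4 made 4 of the 69, beside 6.33% of all genes. By edgeR and by DESeq2 no gene of the 69, and 0% of all genes, passed the adjusted threshold. Of the 69, 48 had a log2 fold change above 0 with a median of 0.10, beside 0.0069 over all genes. By kind, the median was 0.26 in the plexins (6 of 9 above 0), 0.23 in the Slits (3 of 3), 0.21 in the Robos (4 of 4) and 0.11 in the Eph receptors (10 of 13), while it was -0.0019 in the ephrins and 0.016 in the semaphorins. The share of reads outside genes was 8.79% to 11.3% in 3xTg-D and 7.82% to 15.1% in 3xTg-S mice. With that share as covariate the median of the 69 was 0.026 and none of them was called, beside 1.1% of all genes. Without 3xTg-D replicate 2 the median was 0.040.

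In WT mice none of the 69 was called between WT-S and WT-D by edgeR, where 0.188% of all genes were called, or passed the adjusted threshold by DESeq2, which 0.0122% of all genes did. An unadjusted p under 0.05 was found in 3, beside 2.25% of all genes: Plxnb2 (-0.24), Ntn4 (-0.39) and Sema5b (-0.27). Of the 69, 47 lay below 0 with a median of -0.046, beside -7.8e-05 over all genes. The median was -0.030 and -0.029 without WT-S replicate 1 or 3, and -0.086 without WT-S replicate 4. In this comparison mice of the same replicate number deviated together, which was seen in these same data and not known from the design. With the numbers as a block 2 genes were called, both lower with SCDi: Plxnb2 and Plxnb3, plexins for class 4 and class 5 semaphorins, of which Plxnb3 is an oligodendrocyte gene. Over all genes 0.698% were called with the block. Plxnb2 was at 59.0, 49.3, 50.3 and 55.6 CPM in WT-D and 44.2, 43.0, 41.2 and 53.1 in WT-S mice, and Plxnb3 at 22.5, 16.7, 18.4 and 24.9 and 16.9, 15.9, 13.3 and 20.8 CPM. In each the groups overlapped, but each WT-S mouse was below the WT-D mouse of its number. The 6 oligodendrocyte markers summed to 4181 to 4955 CPM in WT-D and 3296 to 5068 CPM in WT-S mice (exact permutation p = 0.486, adjusted p = 0.75), and their part was not tested.

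**Figure D4:**
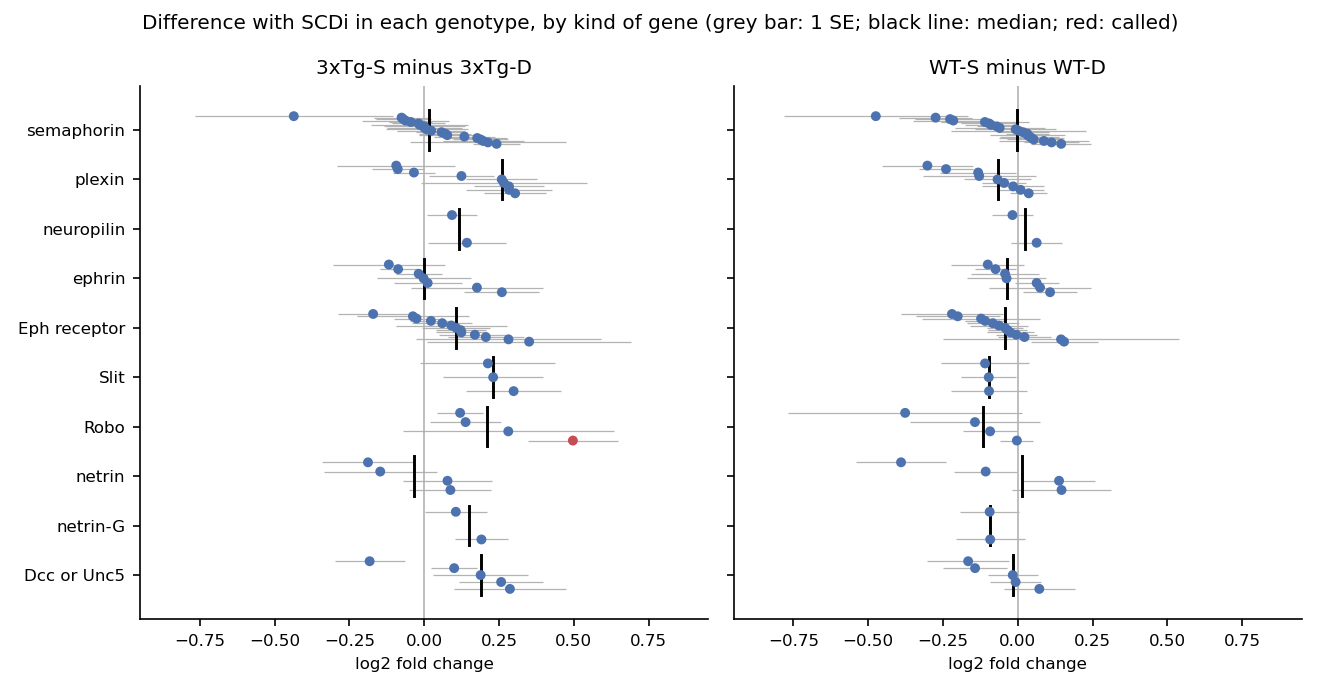
Log2 fold change of each of the 69 genes with SCDi in 3xTg mice (left) and in WT mice (right), by kind of gene, with 1 SE (grey), the median of the kind (black) and called genes in red. In 3xTg mice the Slits, Robos and plexins lie to the right with medians of 0.21 to 0.26 and Robo4 alone is called, while in WT mice the medians lie between -0.12 and 0.022.

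The genotype by treatment interaction asked whether the inhibitor's effect differed between 3xTg and WT mice. None of the 69 was called by edgeR, where 0.595% of all genes were called, or passed the adjusted threshold by DESeq2 (0.00608% of all genes). An unadjusted p under 0.05 was found in 3, beside 4.98% of all genes: Sema5b (0.35, 95% interval 0.049 to 0.66), Robo4 (0.64, 0.071 to 1.21) and Ntn4 (0.47, 0.02 to 0.92). Of the 69, 54 had an interaction above 0 with a median of 0.16, beside 0.0095 over all genes. With the share of reads outside genes as covariate 40 lay above 0 and the median was 0.034, and without the choroid libraries it was 0.11. WT-S replicate 4, with 13.1% of its uniquely aligned reads outside genes, had the highest WT-S value in Slit1, Sema5a, Robo4 and Ntng1. Without it 4 genes had a called interaction, all above 0: Ntng1 (0.39), Plxna1 (0.42), Robo4 (0.83) and Sema5b (0.43), beside 2.31% of all genes (adjusted p = 0.366 by edgeR for each). Without it 7 genes were also called between WT-S and WT-D, all lower with SCDi: Slit1, Slit3, Robo3, Ntng1, Sema5a, Plxna3 and Plxnb2, from -0.97 in Robo3 to -0.20 in Slit3 on the log2 scale, beside 3.13% of all genes (adjusted p = 0.271 to 0.309 by edgeR).

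Averaged over both genotypes, none of the 69 was called with SCDi by edgeR, where 0.832% of all genes were called, or passed the adjusted threshold by DESeq2 (0.0183% of all genes). An unadjusted p under 0.05 was found in 2 (4.49% of all genes), Plxnb2 (-0.16) and Sema4a (0.14). All 69 lay within 0.5 of 0 on the log2 scale, from -0.20 in Plxnb3 to 0.25 in Epha2.

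**Figure D5:**
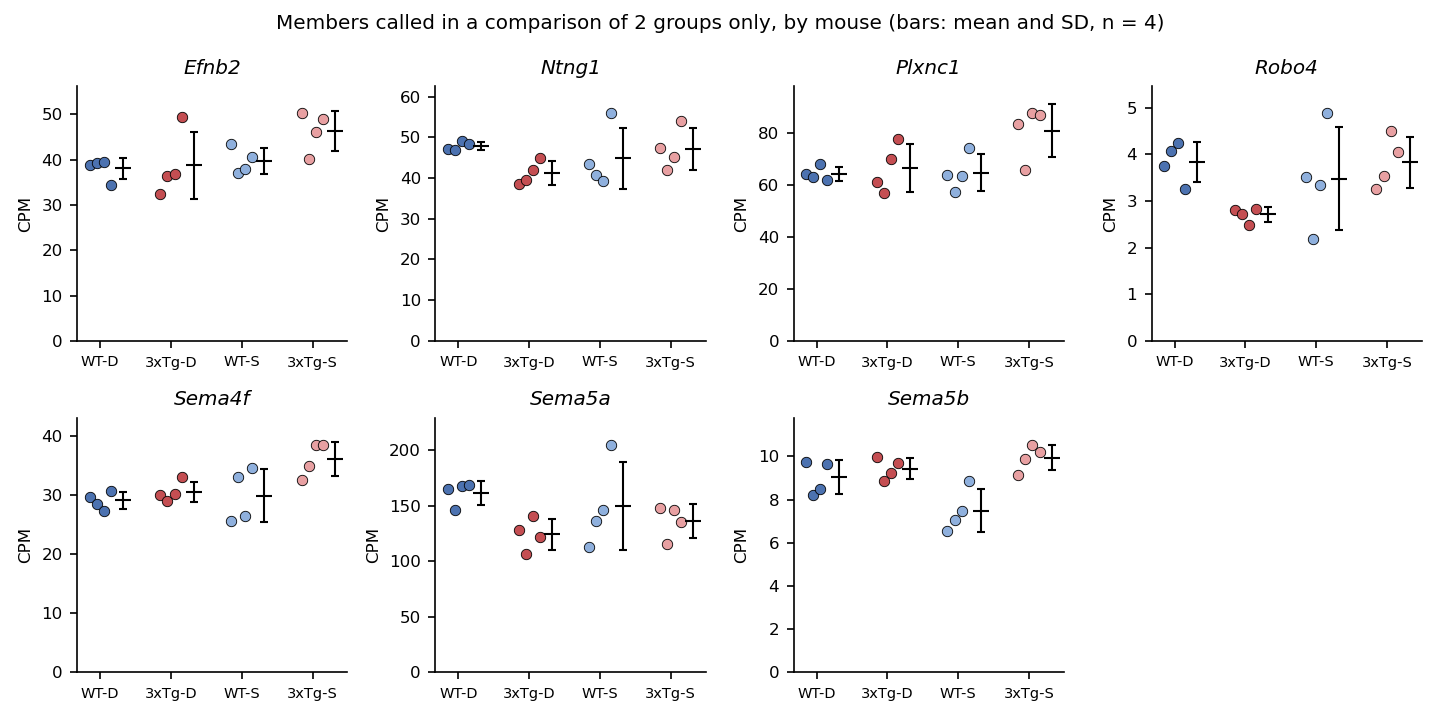
CPM of the other 7 genes called in a comparison of 2 groups, in each mouse of the 4 groups, with the group mean and SD beside the points. Robo4, Ntng1 and Sema5a are lowest in 3xTg-D mice, Sema4f, Efnb2 and Plxnc1 are highest in 3xTg-S mice, and Sema5b is lowest in WT-S mice.

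A list of 71 other genes of the pathway (co-receptors, further cues such as Cxcl12, the Nogo receptor system, and the kinases, exchange factors and actin regulators that guidance receptors act through) held 70 tested genes. With vehicle, none was called higher and 2 of the 70 lower in 3xTg-D mice, beside 2.47% of all genes lower, the chemokine Cxcl12 (log2 fold change -0.21, adjusted p = 0.149 by edgeR) and Srgap1, a GTPase-activating protein downstream of Robo receptors (-0.33, adjusted p = 0.157), both named after their values were seen. With SCDi, 4 were called higher and none lower in 3xTg-S than in WT-S, beside 1.79% and 2.47% of all genes: Neo1, Arhgef11, Cntn2 and Dpysl5, likewise named after their values were seen. Over both treatments, 3 were called higher and 1 lower, beside 3.88% and 4.02% of all genes. Of the 70, 2 passed the adjusted threshold, which 4.93% of all genes passed. Both were higher in 3xTg: Vav2, an exchange factor that acts below Eph receptors (0.27, SE 0.067, adjusted p = 0.0217 by edgeR), and Neo1, neogenin, the receptor related to Dcc that also binds netrin-1 (0.33, SE 0.085, adjusted p = 0.0315 by edgeR). With vehicle Neo1 averaged 131 ± 21.3 CPM in WT-D against 150 ± 14.4 CPM in 3xTg-D mice, and with SCDi 118 ± 17.2 CPM in WT-S against 162 ± 13.6 CPM in 3xTg-S mice (SD, n = 4 each), so that it lay on the same side as Dcc. Comparing SCDi with vehicle, none was called in WT mice, beside 0.188% of all genes. In 3xTg mice 1, the myelin gene Mag, was called lower (-0.42, adjusted p = 0.722 by edgeR), beside 0.904% of all genes in either direction.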

How the data were processed

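Whole-hippocampus RNA of 16 mice was sequenced as single-end reads. Per the submitters' notes and the study's methods, Trimmomatic 0.35 and STAR 2.5.1b were used for trimming and for alignment to GRCm38 with Gencode annotation, and the authors deposited raw counts per gene without normalization. The strand setting and any use of molecular identifiers in counting are not given in the sources used here, so overlapping genes cannot be told apart. The inhibitor is taken from the treatment labels (Cayman), whereas the treatment protocol mentions a different product, ab142089. Groups and replicate numbers come from the labels. Whether the mice shared litters or dissection days is not given, so p-values measure the spread between these mice.

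In all, 33942 genes had a count. edgeR 4.0.16 in R 4.3.3 filtered genes with filterByExpr (minimum count 10, minimum total 15), leaving 16475, and normalized by TMM. Pairs of groups were compared with the two-sided quasi-likelihood test of edgeR, and a gene with an unadjusted p at or below 0.01 was called. Benjamini-Hochberg adjusted values over all genes tested stand beside it. Genotype, treatment and their interaction were also fitted to all 16 mice. Levels per exon used Gencode M21 lengths on the same build. Marker lists were compared by exact two-sided permutation tests of mean log2(CPM + 0.1), 70 in all, where 4 mice against 4 allow no p below 0.0286. The fits were tested on simulated counts.

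All mice with the same replicate number in WT-D and WT-S deviated together (correlations of deviations from group means 0.114 to 0.34), so the blocked value is given for that comparison. The other pairs of groups fell short of this in at least 1 number. The pairing comes from the labels' numbers, whose meaning is not given. The block was chosen from these correlations, and 7 of 8 WT-D and WT-S mice correlated best with their own number.

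Alternatives were median-ratio size factors, DESeq2 1.42.0, no filter, at least 10 counts in every mouse (14293 genes), the replicate block, the share of reads outside genes as covariate, all 16 mice in 1 fit, the adjusted threshold, each mouse left out, and, chosen after seeing the data, leaving out the 2 libraries with choroid plexus RNA. The genes described and all lists were chosen with earlier results of these data known. Named with values of each mouse were genes called in any of the 8 comparisons and the highest ligand and receptor of each family. Other pathway genes past the adjusted threshold were named too.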

Additional observations from a re-analysis of the deposited data

Results flagged for a closer look

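In 80 groups of 4 mice (20 genes in 4 groups), 3 mice stood far from the other mice of their group by the gap between the farthest mouse and its neighbour relative to the whole range. Chance marks about 1 in 20 groups, or about 4 in 80, and 3 is close to that. Efnb2 in WT-D replicate 4 was at 34.5 CPM, against 38.8 to 39.6 CPM in the other WT-D mice. Plxna1 in WT-D replicate 1 was at 132 CPM, against 123 to 124 CPM. Sema5a in WT-D replicate 2 was at 146 CPM, against 165 to 168 CPM. By the interaction test none of the 69 genes was called with all mice in the fit.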

How the results depend on the processing

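The 6 genes past the adjusted threshold over both treatments kept their direction and their call (unadjusted p of at most 0.01) in all 23 alternatives, though only Sema7a and Sema3b passed the adjusted threshold in each. The count of called genes in that comparison was 6 at the adjusted threshold (4.93% of all genes) and 7 to 10 in the other settings (4.88% to 10.7%). With each mouse left out it was 6 to 9 (6.79% to 8.27%). At the adjusted threshold 0 of the 69 were called in each comparison of 2 groups (0% to 1.85% of all genes). With all 16 mice in 1 fit 4 were called in 3xTg-D vs WT-D (4.23% of all genes) and 0 in 3xTg-S vs 3xTg-D (1.51%). With the share of reads outside genes as covariate 0 were called in 3xTg-S vs 3xTg-D (1.1%) and 2 (Plxnb2 and Plxnb3) for treatment over both genotypes (1.38%). Without a filter 1 (Plxnb2) was called for treatment over both genotypes (0.837%). Without the choroid libraries 3 were called in 3xTg-S vs WT-S (3.22%), 4 in 3xTg-S vs WT-D (4.81%) and 1 for treatment over both genotypes (1.07%). No called fold change of the 69 genes reversed in any alternative. Calls pick genes far from 0 relative to their SE, and the alternatives reuse most of the same mice, so this is no separate test. Of those not called, 33 of 62 changed sign in at least 1 alternative in 3xTg-D vs WT-D, 31 of 64 in 3xTg-S vs WT-S and 35 of 69 in WT-S vs WT-D. It was 21 of 61 in 3xTg-S vs WT-D, 24 of 68 in 3xTg-S vs 3xTg-D, 21 of 62 for genotype, 30 of 69 for treatment and 28 of 69 for the interaction. The causes were not tested.

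With the replicate block, 6 were called in 3xTg-D vs WT-D (5.73% of all genes), 7 in 3xTg-S vs WT-S (8.13%), 9 in 3xTg-S vs WT-D (6.53%), 11 in 3xTg-S vs 3xTg-D (6.88%, all 11 higher with SCDi, among them Slit1, Slit2, Slit3, Plxna1, Plxna2 and Dcc), 2 in WT-S vs WT-D, 9 for genotype over both treatments (9.83%), 1 for treatment over both genotypes (Unc5b, 1.37%) and 0 for the interaction (3.79%). Outside WT-S vs WT-D not every pair of same-numbered mice correlated above 0.1, so the numbers were not taken to pair them. Of 4 pairs, 2 did in 3xTg-D with WT-D, with WT-S and with 3xTg-S, and 3 did in 3xTg-S with WT-D and with WT-S. Of 8 mice, 3, 5 and 4 and then 7 and 6 correlated best with their own number, a hint from the data and not from the design.

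With 1 mouse left out, the count of called genes was 4 to 9 in 3xTg-D vs WT-D (4 without WT-D replicate 3 or 3xTg-D replicate 1), 3 to 8 in 3xTg-S vs WT-S (8 without 3xTg-S replicate 2, 3 without WT-S replicate 1, 2 or 3 or 3xTg-S replicate 4), 3 to 12 in 3xTg-S vs WT-D (12 without 3xTg-S replicate 2, 3 without WT-D replicate 1), 0 to 4 in 3xTg-S vs 3xTg-D (4 without 3xTg-S replicate 2), 0 to 7 in WT-S vs WT-D (7 without WT-S replicate 4), 0 to 1 for treatment over both genotypes and 0 to 4 for the interaction (4 without WT-S replicate 4). Over all genes, 4.11% were called in 3xTg-D vs WT-D without WT-D replicate 3 or 3xTg-D replicate 1. Without 3xTg-S replicate 2 the share was 9.38% in 3xTg-S vs WT-D, 6.03% in 3xTg-S vs WT-S and 4.87% in 3xTg-S vs 3xTg-D. It was 3.13% to 3.46% where 3 were called in 3xTg-S vs WT-S, and 4.07% in 3xTg-S vs WT-D without WT-D replicate 1. Without WT-S replicate 4 it was 3.13% in WT-S vs WT-D and 2.31% for the interaction. Depth limits the low genes most: Sema3b had a mean of 36.7 counts and Epha2 11.2.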

Other observations

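Robo3, a divergent Robo receptor known for midline crossing of hindbrain axons, was called in none of the 8 comparisons with all mice in the fit, and had the widest range between mice of the 4 Robos. It was at 9.46, 11, 8.96 and 19.2 CPM in WT-D, 11.6, 5.45, 8.12 and 11.7 in 3xTg-D, 6.62, 5.54, 6.28 and 19.2 in WT-S and 12.6, 4.20, 13.2 and 14.7 in 3xTg-S mice. The groups overlapped, and the highest mice were WT-D replicate 4 and WT-S replicate 4.

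Ntn5, a netrin, had the highest log2 fold change of the 69 genes in 3xTg-D against WT-D (0.33, 95% interval -0.0072 to 0.66) without being called. It was at 3.17, 2.79, 3.30 and 3.68 CPM in WT-D and 3.85, 4.82, 3.40 and 4.09 in 3xTg-D mice, which overlapped. Sema3f, a secreted semaphorin known for acting on dendritic spines through neuropilin 2, had the highest in 3xTg-S against WT-S (0.63, 95% interval 0.15 to 1.11) and was not called either, at 1.36, 0.933, 1.47 and 1.03 CPM in WT-S and 2.03, 1.96, 1.99 and 1.57 in 3xTg-S mice. These values did not overlap, but the gene had a mean of 31.1 raw counts. All 3 genes were picked after their values were seen.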
